A study of Mus musculus with 48 samples.

Results

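Gene expression in the inferior olive of wild-type (WT) mice was compared between 12 and 5 weeks of age, using 12 of the 48 libraries of the series. All 12 come from male WT control mice that carry no mutant ataxin-1 allele, with 3 libraries in each of 4 groups. The groups are FVB/NJ at 5 weeks, FVB/NJ at 12 weeks, C57BL/6J at 5 weeks and C57BL/6J at 12 weeks. The FVB/NJ mice were the controls of the ATXN1-82Q transgenic (Tg) line and the C57BL/6J mice were the controls of the Atxn1 154Q/2Q knock-in (KI) line, both of which are models of spinocerebellar ataxia type 1. The study sequenced RNA of 2 brain regions, inferior olive and cerebellum, in mutants and controls of both lines. The tissue was dissected from the brainstem by landmarks, so each library holds RNA from all cells of that block and not from olivary neurons alone.

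The inferior olive is a group of nuclei in the medulla whose neurons send climbing fibers to the Purkinje cells of the cerebellum. Their axons, and the many tracts that pass through the medulla, are wrapped in myelin by oligodendrocytes. Oligodendrocytes arise from precursors through a short-lived newly formed stage, and myelin, which is rich in cholesterol and galactolipids, is laid down most actively in the first weeks after birth. In bulk tissue, fewer cells of a type and less RNA per cell cannot be told apart, and this holds for every comparison given here.

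The measure was FPKM, the number of sequenced fragments scaled by transcript length and library size, which the authors normalized separately in each table of 6 libraries. The 4 groups compared here come from 4 different tables, so within a strain the age of the mice and the table cannot be told apart. Each library was therefore rescaled by its median ratio to the geometric mean over 12003 genes above 0.5 FPKM in all 12, which moved values by factors of 0.974 to 1.02. Between 11659 and 11886 genes reached 1 FPKM in a library, and the fragments behind each value are unknown. Libraries of a group correlated at 0.992 or more on the log2 scale, except C57BL/6J 5 weeks replicate 2, which correlated with the others of its group at 0.986 and 0.987. Markers of olivary neurons were present in all 12 libraries, among them C1ql1, which encodes a protein of climbing fiber synapses, at 29.5 to 45.9 FPKM. Markers of neighbouring brainstem neurons were present too, and Slc6a5, the glycine transporter of glycinergic neurons, averaged 79.5 to 87.9 FPKM in the 4 groups. Transcripts of the choroid plexus, the tissue that secretes cerebrospinal fluid next to the medulla, differed widely between libraries and are given below with the genes that moved with them.

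The question was which genes differ between 5 and 12 weeks in both strains. A gene was called when its age difference, with strain as a covariate, had an adjusted p under 0.05 in limma's moderated test with Benjamini-Hochberg adjustment over all 12287 genes tested, all of which averaged 0.5 FPKM or more in every group. By this test 800 genes rose (6.51% of those tested) and 1034 fell (8.42%) at 12 weeks. A gene was said to agree in both strains when it was called and also had an unadjusted p under 0.05 in each strain with the same sign. This left 368 genes that rose (3%) and 721 that fell (5.87%). Most differences were small, with a median log2 change of 0.32 among the agreeing genes that rose and -0.29 among those that fell. Of the agreeing genes, 11 rose and 16 fell by at least 1 on the log2 scale. The median change of all genes tested was 0.01. The share of calls that were higher depended on the scaling, with 800 of 1834 calls as reported, 1143 of 1994 without rescaling and 1033 of 1934 with upper quartile scaling, while the median of all genes moved by less than 0.03.

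**Figure D1:**
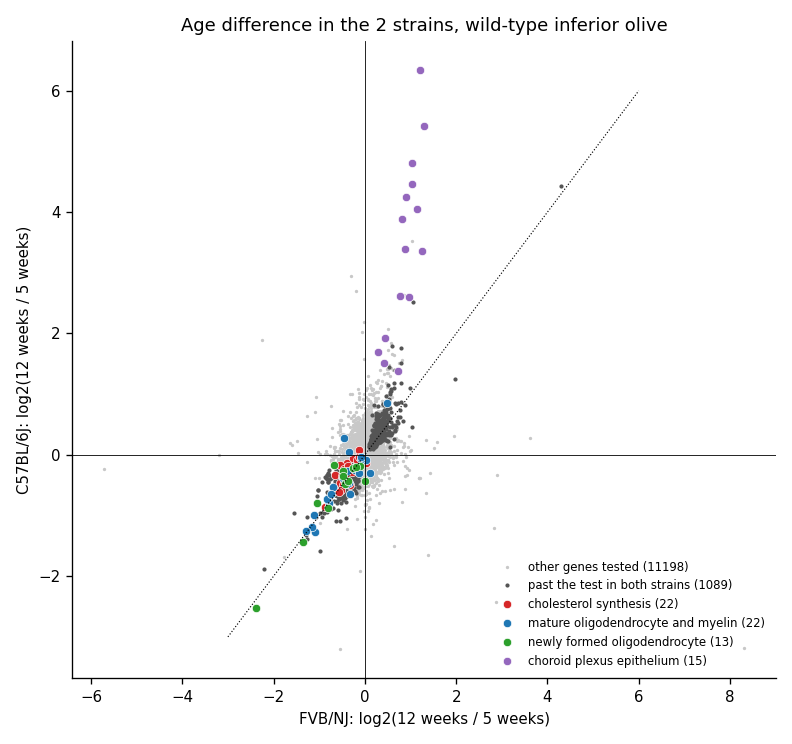
Log2 change from 5 to 12 weeks in FVB/NJ (horizontal axis) and C57BL/6J (vertical axis) for the 12287 genes tested, with the 1089 agreeing genes in dark grey, 4 gene lists in color and the dotted line marking equal change. Oligodendrocyte and cholesterol genes lie mostly at lower left near the line, and the 15 choroid plexus genes lie above it, with a median of 0.91 in FVB/NJ and 3.39 in C57BL/6J.

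Genes of newly formed oligodendrocytes fell more than most, where 8.42% of all genes tested were called lower and 5.87% fell in agreement. Of 13 genes on this list, all of which passed the filter, 10 were called lower and 9 agreed in both strains, with a median log2 change of -0.41 against 0.01 for all genes. Gpr17, a receptor that marks the stage between precursor and myelinating cell (chr18:31931507-31958619, mm10), was at 20.9, 22.1 and 20.4 FPKM in the FVB/NJ libraries at 5 weeks and at 7.5, 7.19 and 10.3 FPKM at 12 weeks. The C57BL/6J libraries had 25.6, 24.1 and 24.5 FPKM at 5 weeks and 9.13, 9.53 and 8.6 FPKM at 12 weeks. The ages did not overlap in either strain, and the log2 change was -1.39 ± 0.07 (SE; adjusted p = 7.8e-08), which is 0.381-fold. Enpp6, a choline phosphodiesterase that marks oligodendrocytes as they begin to myelinate, went from a mean of 17.3 FPKM over the 6 libraries at 5 weeks to 9.09 FPKM over the 6 at 12 weeks, again without overlap in either strain (log2 -0.92 ± 0.06). Rras2, a small GTPase, fell by 0.84 ± 0.05 on the log2 scale in the same way. The long noncoding RNA 9630013A20Rik had the largest change on the list, from 4.53 to 11.7 FPKM at 5 weeks to 0.812 to 1.65 FPKM at 12 weeks (log2 -2.45 ± 0.08). Its deposited locus was 204241 and 204659 bases long in the FVB/NJ tables and 94454 and 94119 bases in the C57BL/6J tables, so its length differed between strains more than between ages. Bcas1 and Itpr2 did not pass the test, with log2 changes of -0.14 ± 0.05 and -0.22 ± 0.08.

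Structural genes of myelin fell with them, against 8.42% of all genes tested called lower and 5.87% lower in agreement. Of 25 mature oligodendrocyte and myelin genes, 22 matched 1 row in every table and all 22 were tested, of which 14 were called lower and agreed in both strains, 1 was called higher and 7 were not called (median log2 -0.42). In all 14 the libraries at 12 weeks lay below those at 5 weeks in both strains. Mal, a proteolipid of compact myelin (chr2:127633226-127656695), was at 371, 400 and 412 FPKM at 5 weeks and at 173, 174 and 184 FPKM at 12 weeks in FVB/NJ. The C57BL/6J libraries were at 411, 436 and 423 FPKM and then at 176, 189 and 189.5 FPKM. The change was -1.17 ± 0.04 on the log2 scale (adjusted p = 5.2e-10), with -1.16 in FVB/NJ and -1.19 in C57BL/6J. Mog, a protein of the outer myelin surface (chr17:37010740-37023398), was at 241 to 293 FPKM in the 6 libraries at 5 weeks and at 122 to 129.6 FPKM at 12 weeks (log2 -1.05 ± 0.04).

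Gsn, which encodes the actin-severing protein gelsolin, and Cldn11, the claudin of myelin tight junctions, fell by 1.28 ± 0.05 and 1.19 ± 0.05 on the log2 scale. Mbp, the myelin basic protein and the most abundant of the list, went from a mean of 5268 to 3022 FPKM (log2 -0.79 ± 0.08), and Cnp and Mag, an enzyme and an adhesion protein of noncompact myelin, fell by 0.78 ± 0.04 and 0.61 ± 0.07. Ugt8a, which makes the galactolipids of myelin, was among the 12 genes with the largest falls by the fixed naming rule. It was at 201 to 234 FPKM at 5 weeks and at 74.2 to 99.7 FPKM at 12 weeks (log2 -1.33 ± 0.06). Tspan2, a tetraspanin of oligodendrocytes, was at 162 to 220.5 and then at 73.2 to 83.5 FPKM (log2 -1.20 ± 0.05).

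The myelin genes did not move alike. Car2, the carbonic anhydrase of oligodendrocytes, was at 285 to 329.5 FPKM at 5 weeks and 276 to 310.4 FPKM at 12 weeks and did not pass the test (log2 -0.07 ± 0.03, adjusted p = 0.13). Mobp, another myelin protein gene, was lower at 12 weeks in all FVB/NJ libraries (log2 -0.45) and higher in all C57BL/6J libraries (log2 0.28), and its deposited locus differed between the tables, at 31608 to 40681 bases. The member that rose was Il33, a nuclear cytokine that mature oligodendrocytes and astrocytes also make. It was at 22.9 to 38.3 FPKM at 5 weeks and at 29.7 to 63.4 FPKM at 12 weeks, without overlap within either strain (log2 0.67 ± 0.08, adjusted p = 0.00015).

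**Figure D2:**
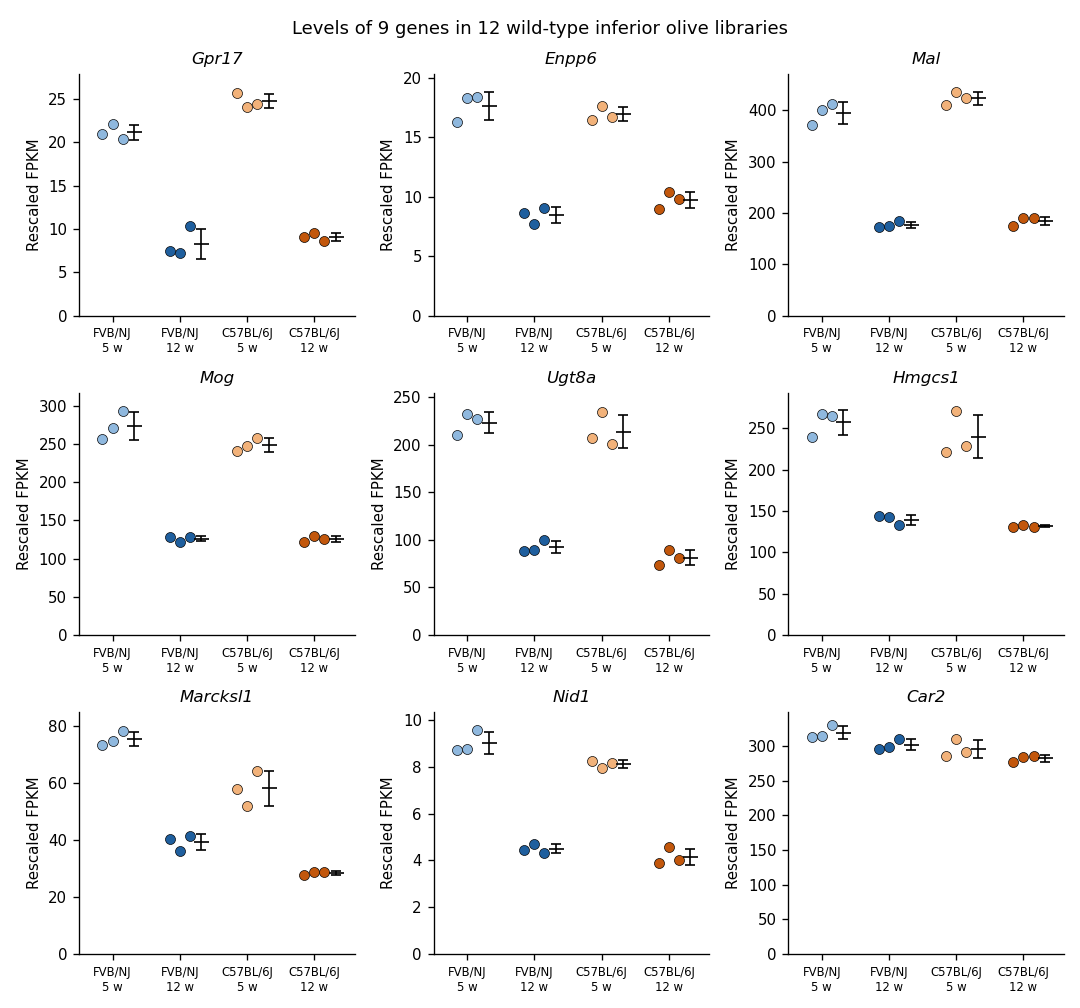
Rescaled FPKM of 9 genes in each of the 12 libraries (points), by strain and age, with the group mean and SD as bars beside them (n = 3 per group). Each gene except Car2 was lower in every library at 12 weeks than in any library at 5 weeks of the same strain.

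Of 9 genes of oligodendrocyte precursors 8 were tested, 5 were called lower and 4 agreed. Vcan, a proteoglycan of the extracellular matrix, was at 4.25 to 5.62 and then at 3.23 to 4.68 FPKM (log2 -0.38 ± 0.06). The transcription factors Olig1 and Olig2 were called lower as well, with log2 changes of -0.34 ± 0.07 and -0.38 ± 0.08. In the FVB/NJ 12 week table these 2 genes share 1 deposited locus of 146667 bases, so their values there are uncertain. Lhfpl3 was called with a log2 change of -0.60 ± 0.10, and Pdgfra, the receptor that marks precursors, was called without agreement in both strains (log2 -0.16 ± 0.05). Of these 5 genes Vcan alone had locus ends within 500 bases in the 4 tables. Of 30 cell cycle genes 28 matched and 12 passed the filter, and 0 were called by limma (4 had an unadjusted p under 0.05). Of all genes tested, 6.51% were called higher and 8.42% lower. Mki67 and Top2a, which mark dividing cells, were below the filter.

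Genes of cholesterol synthesis fell nearly as a whole, against 8.42% of all genes tested called lower and 5.87% lower in agreement. Of 24 genes on the list, 22 matched and were tested, all 22 had a negative log2 change, 18 were called lower and 15 agreed in both strains, with a median of -0.35. Hmgcs1, which makes the precursor of mevalonate (chr13:119690351-119708260), was at 240.1, 267 and 265 FPKM at 5 weeks and at 144, 142 and 133 FPKM at 12 weeks in FVB/NJ. In the C57BL/6J libraries it was at 221, 270.5 and 229 FPKM and then at 131, 133 and 131 FPKM. The log2 change was -0.87 ± 0.05 (adjusted p = 1.2e-07), or 0.547-fold. Cyp51, which demethylates lanosterol, and Sqle, which makes squalene epoxide, fell by 0.59 ± 0.04 and 0.49 ± 0.04, also without overlap in either strain. Idi1, which interconverts the isoprene units, fell by 0.55 ± 0.06. The regulators on the list did not pass the test. Srebf2, the transcription factor that drives the pathway, was at 41.9 to 54.1 and then at 41.3 to 56.8 FPKM (log2 -0.05 ± 0.06, adjusted p = 0.55), and Insig1, which retains that factor in the endoplasmic reticulum, had a log2 change of -0.03 ± 0.05.

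The promoters of these enzymes share letters that the gene list did not use. RefSeq windows of 250 bases before the transcription start (GRCm38.p6) were present for 17 of the 24 genes. At least 1 CCAAT box, on either strand, was found in at least 1 window of 16 of the 17 genes (94.1%), against 10133 of the 27025 genes with an entry (37.5%) and 40.1% of the 9082 tested genes with one. For the myelin list the count was 10 of 17 genes (58.8%) and for the newly formed oligodendrocyte list 3 of 11 (27.3%). A gene can have more than 1 window, which gives more room for a match. The cholesterol genes had 20 windows, the myelin genes 26, the newly formed oligodendrocyte genes 12 and the tested genes 11734. A sterol response element of the form TCACNCCAC, which SREBP factors bind, was found for 1 of the 17 genes, Hmgcs1, and for 331 of the 27025. Some chromosomes were left out in choosing windows to show. The windows of the 3 agreeing genes with the largest falls among the remaining genes with an entry are shown, with at least 1 CCAAT box in each. They read 5′ to 3′ on the strand of the gene in lower case, with CCAAT boxes (ATTGG on the other strand) and the sterol element in capitals. Those of Hmgcs1 (chr13:119690101-119690350, plus strand), Cyp51 (chr5:4104698-4104947, minus strand) and Idi1 (chr13:8885356-8885605, plus strand) are as follows.
Hmgcs1: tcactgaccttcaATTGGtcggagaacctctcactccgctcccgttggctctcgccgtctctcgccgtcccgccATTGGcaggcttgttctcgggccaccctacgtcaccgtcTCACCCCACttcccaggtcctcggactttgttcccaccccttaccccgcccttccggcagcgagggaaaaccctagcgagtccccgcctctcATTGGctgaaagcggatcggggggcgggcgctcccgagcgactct
Cyp51: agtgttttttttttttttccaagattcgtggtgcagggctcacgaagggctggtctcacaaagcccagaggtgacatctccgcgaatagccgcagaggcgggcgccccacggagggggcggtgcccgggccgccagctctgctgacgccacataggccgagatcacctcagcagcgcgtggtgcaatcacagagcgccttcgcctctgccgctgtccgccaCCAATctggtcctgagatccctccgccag
Idi1: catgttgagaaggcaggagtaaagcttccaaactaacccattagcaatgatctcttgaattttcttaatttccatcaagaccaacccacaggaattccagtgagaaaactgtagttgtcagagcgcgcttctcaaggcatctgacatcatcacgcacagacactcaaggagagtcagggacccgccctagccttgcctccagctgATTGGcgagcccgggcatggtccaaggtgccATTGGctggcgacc
In Hmgcs1 the CCAAT boxes begin 237, 176 and 45 bases before the start and the sterol element 137 bases before it. Cyp51 has 1 box, 29 bases before its start, and Idi1 has 2, at 45 and 14 bases. Matches of this kind are a description of the letters and were not tested for binding.

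**Figure D3:**
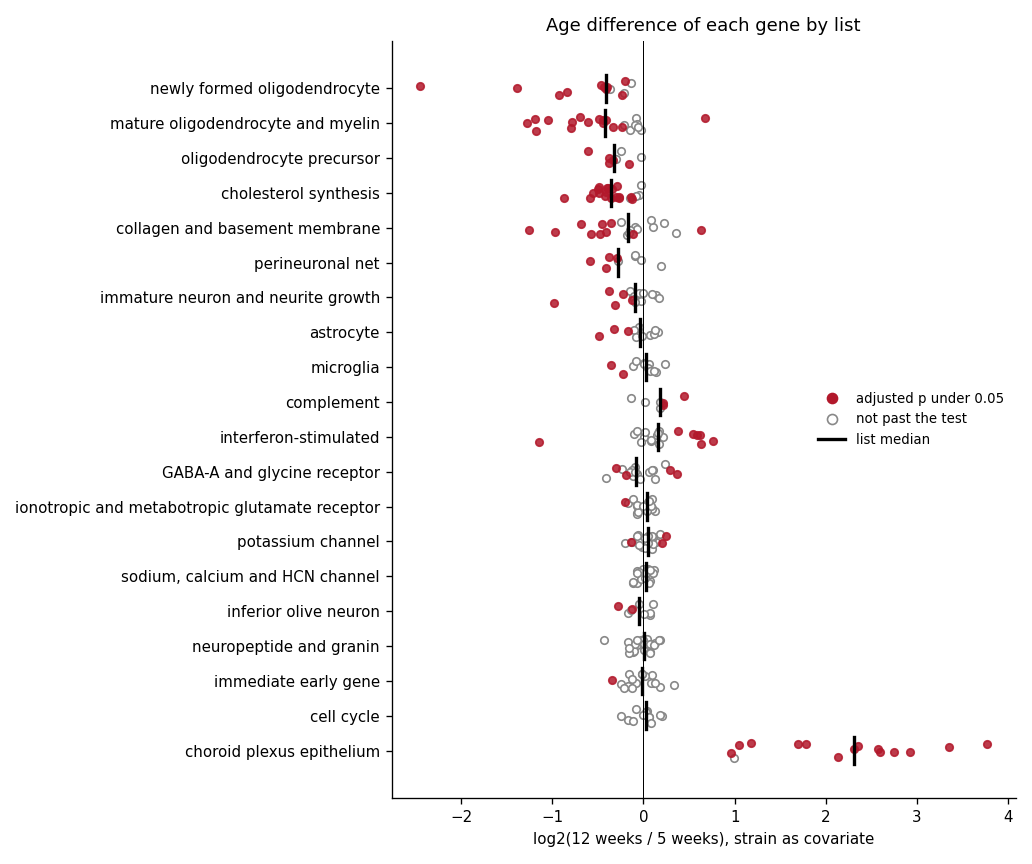
Log2 change from 5 to 12 weeks, with strain as covariate, of every tested gene of 20 lists (one row per list). Filled points passed the test at an adjusted p under 0.05, open points did not, and the bar is the list median, which is -0.35 for cholesterol synthesis and 2.31 for choroid plexus epithelium.

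Extracellular matrix genes were lower at 12 weeks in part, where 8.42% of all genes tested were called lower and 5.87% fell in agreement. Of 24 collagen and basement membrane genes 20 were tested, 9 were called lower, 6 of them in agreement, and 1 was called higher (median -0.17). Nid1, a linker protein of basement membranes, was at 7.93 to 9.55 FPKM at 5 weeks and at 3.89 to 4.7 FPKM at 12 weeks (log2 -0.97 ± 0.05). Lamc1, a laminin chain, and Col4a2, a chain of basement membrane collagen, fell by 0.46 ± 0.04 and 0.41 ± 0.06. The locus of Col4a2 was 250948 bases long in the FVB/NJ 5 week table and 136459 bases in the other 3. Its log2 change was -0.51 in FVB/NJ and -0.31 in C57BL/6J. Col3a1, a fibrillar collagen, was at 3 to 5.35 and then at 0.783 to 2.34 FPKM (log2 -1.26 ± 0.22). Lamb1, another laminin chain, was called higher (log2 0.64 ± 0.14), but its locus was 64346 bases long in the FVB/NJ 12 week table and 86231 to 86336 bases in the other 3, and it did not agree in both strains. Fn1 and Col6a1 did not pass the test (log2 -0.15 ± 0.14 and -0.09 ± 0.13).

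Of 12 genes of perineuronal nets, the matrix that coats some neurons, 9 were tested and 4 fell in agreement, against 5.87% of all genes. Hapln1, a link protein of these nets, was at 11.4 to 16 FPKM at 5 weeks and at 7.46 to 8.7 FPKM at 12 weeks (log2 -0.59 ± 0.08). The proteoglycan Ncan and the glycoprotein Tnr fell by 0.41 ± 0.06 and 0.29 ± 0.04, and the remaining gene was Vcan, which is also on the precursor list. Bcan and Hapln4 did not pass the test, with log2 changes of -0.09 ± 0.08 and 0.19 ± 0.07. Acan and Has3 were left out because their symbols are repeated. With the row of highest mean kept, they had log2 changes of 0.15 and 0.11 and did not pass the test.

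Of 23 genes of immature neurons and neurite growth 18 were tested and 5 fell, all in agreement, against 5.87% of all genes. Marcksl1, an actin regulator, was at 51.9 to 78.2 FPKM at 5 weeks and at 27.6 to 41.3 FPKM at 12 weeks without overlap in either strain (log2 -0.98 ± 0.05, adjusted p = 7.2e-08). The growth factor Ptn fell by 0.38 ± 0.04 and Nrep by 0.31 ± 0.06. Dcx, a microtubule protein of migrating neurons, was low at both ages and fell from a mean of 2.02 to 1.71 FPKM (log2 -0.23 ± 0.06). Stmn1 and Tubb3, cytoskeletal genes of young and mature neurons, had log2 changes of -0.15 ± 0.06 and -0.03 ± 0.07 and did not pass the test.

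Markers of other glia and of vessels were called lower in part, where 8.42% of all genes tested were. Of 14 astrocyte genes 12 were tested, and 3 fell, namely the water channel Aqp4 (log2 -0.48 ± 0.05), the intermediate filament Gfap (log2 -0.32 ± 0.05) and the gap junction gene Gja1 (log2 -0.17 ± 0.04), all without overlap in either strain. The remaining 9 astrocyte genes were not called, among them S100b with a log2 change of -0.08 ± 0.04. Of 15 microglia genes 12 were tested and 2 were called lower, the purine receptor P2ry12 (log2 -0.36 ± 0.06) and Gpr34 (log2 -0.23 ± 0.07). Only 1 of the 2 agreed in both strains, and the cathepsin gene Ctss did not pass the test (log2 0.14 ± 0.05). Of 10 endothelial genes 9 were tested and 1 was called, Itm2a (log2 -0.28 ± 0.07), without agreement in both strains. Of 7 mural genes Rgs5 and Pdgfrb were called lower, with log2 changes of -0.27 ± 0.06 and -0.21, and 1 of the 2 agreed. The median log2 change was -0.04 for the astrocyte, 0.03 for the microglia and -0.01 for the endothelial list, against 0.01 for all genes tested. In the microglia list 8 genes had a positive and 4 a negative log2 change, and in the astrocyte list 4 and 8. The median of the mural list was -0.18 in FVB/NJ and 0.17 in C57BL/6J.

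Outside the lists, other genes with large falls were Srd5a1, Cldn14 and Kif19a. Srd5a1, the steroid 5-alpha-reductase of the brain, was at 9.15 to 12.8 FPKM at 5 weeks and at 4.48 to 6.14 FPKM at 12 weeks (log2 -1.05 ± 0.05). Cldn14, a claudin, was at 4.03 to 7.22 and then at 1.75 to 2.69 FPKM (log2 -1.16 ± 0.10). Kif19a, a kinesin, fell by 1.06 ± 0.08 on the log2 scale. A deposited locus can span neighbouring genes and differ from table to table, and in some named genes its extent changed with age. The zinc finger gene Zfp619 went from a mean of 5.01 to 1.12 FPKM while its locus was 51380 and 62882 bases long in the 5 week tables and 22763 and 25101 bases in the 12 week tables. Deb1 was at 2.33 to 3.4 FPKM at 5 weeks and at 44.6 to 67 FPKM at 12 weeks, with loci of 49691 and 61401 bases at 5 weeks and 10325 and 2533 bases at 12 weeks. Over all genes tested, 9.06% of the 7653 whose locus ends lay within 500 bases in the 4 tables agreed in both strains, and 8.55% of the other 4634.

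The genes that rose in both strains by the naming rule were a mixed set. Abca8a, a lipid transporter of the ABC family with close relatives in the same cluster, was at 0.961 to 1.22 FPKM at 5 weeks and at 4.15 to 4.64 FPKM at 12 weeks in FVB/NJ. In C57BL/6J it was at 0.823 to 1.45 and then at 2.5 to 3.05 FPKM (log2 1.61 ± 0.15, adjusted p = 1.5e-05). Neat1, the long noncoding RNA of nuclear paraspeckles, was at 30.8 to 37.4 FPKM at 5 weeks and at 49.8 to 74.2 FPKM at 12 weeks (log2 0.87 ± 0.08). Tspo, a mitochondrial membrane protein of glia, rose by 0.83 ± 0.15 on the log2 scale. H2-Aa and Cd74, which encode a chain of class II antigen presentation and its chaperone, rose from a mean of 1.16 to 2.95 FPKM and from 3.83 to 7.59 FPKM (log2 1.19 ± 0.22 and 0.99 ± 0.16). Ltc4s, Cox6b2, Sema3b, Spint2, Ppp1r1b and Eps8l2 rose by 0.83 to 1.28 on the log2 scale. The locus of Ltc4s, the largest of these rises, changed with age, from 13548 to 19859 bases in FVB/NJ and from 2839 to 19985 bases in C57BL/6J. Spint2, a protease inhibitor of epithelia, was at 12.2, 10.3 and 13.2 FPKM at 5 weeks and at 31.1, 21.4 and 12.9 FPKM at 12 weeks in FVB/NJ, so the ages overlapped there. In C57BL/6J it was at 8.62, 8.81 and 7.81 and then at 30.2, 10.7 and 21.6 FPKM. Within each group the libraries stand in the same order by Spint2 as by Ttr, a choroid plexus transcript.

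Of 25 interferon-stimulated genes 19 were tested, 6 rose in agreement and 1 fell (median 0.16). Among all genes tested, 6.51% were called higher and 3% rose in agreement. Bst2, which tethers virus particles to the cell, was at 2.12 to 3.56 FPKM at 5 weeks and at 3.57 to 5.87 FPKM at 12 weeks (log2 0.76 ± 0.13). Ifi27 and Xaf1 rose by 0.62 ± 0.10 and 0.38 ± 0.07, and the others were Psmb8 and Psmb9, subunits of the immunoproteasome, and Lgals3bp. The member that fell, Rtp4 (log2 -1.14 ± 0.10), had a locus of 162438 bases in both 5 week tables and of 26021 and 25928 bases in the 12 week tables. Of 3 tested genes of class I antigen presentation the peptide transporter gene Tap2 rose (log2 0.43 ± 0.06). Of 7 complement genes tested C4b and C1qa rose in agreement, and C1qc was called without agreement in both strains and lost its call with the replicate number as a block (adjusted p = 0.059). C4b was at 4.53 to 5.18 FPKM at 5 weeks and at 5.31 to 7.67 FPKM at 12 weeks (log2 0.45 ± 0.08), and C1qa and C1qc had log2 changes of 0.21 ± 0.04 and 0.21 ± 0.06.

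Calls among genes of neuronal signaling differed from list to list, where 6.51% of all genes tested were called higher and 8.42% lower. Of 20 sodium, calcium and HCN channel genes tested 0 were called (1 had an unadjusted p under 0.05), and of 23 neuropeptide and granin genes 0 were called (0 at the unadjusted threshold). In 3 of these 23 the age difference itself differed between the strains. Scg2, which encodes secretogranin II, was at 181 to 199 FPKM at 5 weeks and at 205 to 213 FPKM at 12 weeks in FVB/NJ, and at 215 to 240.4 and then at 179 to 192 FPKM in C57BL/6J. Its log2 changes were 0.13 and -0.27, and those of the other two were 0.24 and -0.46 for Penk, the precursor of enkephalins, and 0.07 and -0.38 for Chgb, another granin. Of 28 potassium channel genes Kcnt1 and Kcnh1 were called higher (log2 0.25 ± 0.07 and 0.20 ± 0.06) and Kcna1 lower (log2 -0.14 ± 0.04), none in agreement. Of 18 genes of inhibitory receptors and chloride transport 2 were called higher, in agreement, and 2 lower, 1 of them in agreement. Glra1, the glycine receptor subunit of the adult brainstem, rose, with 78.4 to 87.3 FPKM at 5 weeks and 93.4 to 113 FPKM at 12 weeks (log2 0.29 ± 0.05) and Gabrg3, a GABA-A receptor subunit, rose by 0.37 ± 0.07. Slc12a2, the chloride importer NKCC1, was at 55.9 to 69.4 and then at 42.5 to 53.1 FPKM (log2 -0.30 ± 0.06), and Gabra2 was called lower too (log2 -0.19 ± 0.05). Slc12a5, the exporter KCC2, did not pass the test (log2 0.12 ± 0.06). Of 17 immediate early genes 1 was called lower, Fos (log2 -0.35 ± 0.11, adjusted p = 0.0499), without agreement in both strains. Of 17 circadian clock genes and of 9 genes of the ataxin-1 complex 0 were called by limma, with 1 and 2 at an unadjusted p under 0.05.

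Of 9 markers of olivary neurons 2 were called lower, 1 of them in agreement. Among all genes tested, 6.51% were called higher and 8.42% lower. Gjd2, which encodes connexin 36 of the gap junctions between olivary neurons, was at 9.99, 10.8 and 10.6 FPKM at 5 weeks and at 8.49, 7.97 and 8.77 FPKM at 12 weeks in FVB/NJ. In C57BL/6J it was at 13.5, 12.1 and 12.3 and then at 10.3, 11 and 10.3 FPKM (log2 -0.28 ± 0.04, adjusted p = 0.00069), and its locus was 22694 and 25337 bases long in the FVB/NJ tables and 52574 and 52575 bases in the C57BL/6J tables. Slc17a6, the vesicular glutamate transporter of these and other brainstem neurons, had a log2 change of -0.12 ± 0.04 and did not agree in both strains. Htr5b, C1ql1, Pou4f1, Foxp2, Calb1, Crh and Cacna1g did not pass the test, with log2 changes of -0.16 to 0.10. For Crh the libraries at 12 weeks were all higher in FVB/NJ and all lower in C57BL/6J. Of 4 raphe, 4 motor neuron, 4 glycinergic and GABAergic, 4 Purkinje cell and 5 granule cell markers tested, 0 were called by limma and 0 had an unadjusted p under 0.05.

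Choroid plexus transcripts were higher at 12 weeks and varied between libraries of a group. Of 22 markers 20 matched, and their summed level was 706 to 1167 FPKM in FVB/NJ at 5 weeks, 906 to 3643 FPKM in FVB/NJ at 12 weeks, 23.1 to 199.6 FPKM in C57BL/6J at 5 weeks and 931 to 4662 FPKM in C57BL/6J at 12 weeks. Ttr, the thyroxine carrier that this epithelium makes in large amounts, was at 643, 632.5 and 1062 FPKM and then at 3353, 1908 and 820.3 FPKM in FVB/NJ. In C57BL/6J it was at 17.6, 161 and 5.4 FPKM and then at 4244, 822 and 2434 FPKM. Of 15 markers tested 14 were called higher, 2 of them in agreement, Kl and Ace. All 14 had their lowest group mean in C57BL/6J at 5 weeks. Wfdc2 was at 0 in C57BL/6J 5 weeks replicate 3. Of 12 leptomeningeal markers 11 were tested and Igfbp2 was called higher (log2 0.97 ± 0.24). The median log2 change of that list was 0.11, with -0.15 in FVB/NJ and 0.35 in C57BL/6J. Of 7 ependymal markers 6 were tested and Rsph1 was called higher (log2 0.79 ± 0.18), with a list median of 0.18. Over all genes tested, 6.51% were called higher and 3% rose in agreement.

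**Figure D4:**
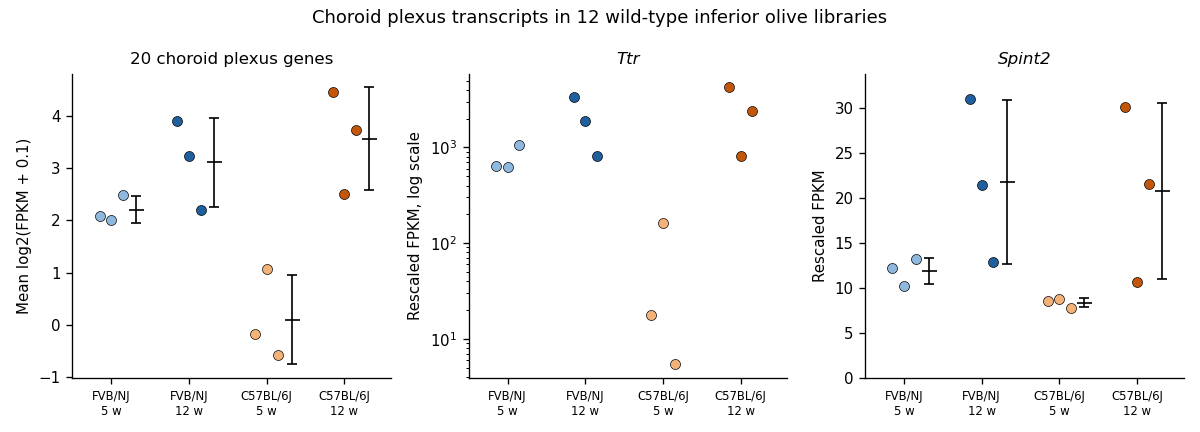
Choroid plexus transcripts in each of the 12 libraries (points) by strain and age, as the mean log2(FPKM + 0.1) of 20 marker genes with group mean and SD (left), as FPKM of Ttr on a log scale (middle), and FPKM of Spint2, which is not on the marker list, with group mean and SD (right). C57BL/6J libraries are lowest at 5 weeks, and the libraries at 12 weeks differ among themselves in all 3 panels.

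Some of the genes that differed with age followed these transcripts between libraries of a group. Over the 12 libraries, deviations from the group mean correlated with those of the choroid plexus list above 0.7 in 48 of 368 agreeing genes that rose (13%), in 19 of 721 that fell (2.64%) and in 727 of the 12287 tested (5.92%). With the mean level of the list as a covariate, 82 of the 368 and 339 of the 721 were still called in the same direction. Since the list itself differs with age, this covariate also takes up part of the age difference. In that fit 13 cholesterol genes, 10 myelin genes and 8 newly formed oligodendrocyte genes were lower, of 18, 14 and 10 without it, but 1 of 5 precursor genes was called lower. None of the 6 interferon-stimulated genes that rose was called in that fit, where Bst2 had a log2 change of 0.59 in place of 0.76 and the other 5 had 0.18 to 0.38. Ltc4s, H2-Aa, Cox6b2, Sema3b, Cd74, Spint2, Ppp1r1b, Tspo and Eps8l2 were not called either, with log2 changes of 0.20 for Spint2 to 0.67 for Cox6b2. Other lists gained calls, as 5 complement genes were higher in place of 3, with C4b at 0.69 in place of 0.45, and 3 inhibitory receptor genes in place of 2. Abca8a and Neat1 were still called higher, with log2 changes of 1.80 and 0.70. The part of choroid plexus material in the rises was not tested.

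Mutant inferior olive libraries of the same 4 tables gave another set of mice, 6 at each age, from both mutant lines. Mutant human ATXN1 is made in Purkinje cells under the Pcp2 promoter in the Tg line, and mutant mouse Atxn1 under its own regulatory elements in the KI line. In these mutants 1068 genes were higher (8.67%) and 1278 lower (10.4%) at 12 weeks. Of the 720 agreeing WT genes that fell and could be tested there, 605 were called lower in the mutants (84.0%). Of 365 that rose, 194 were called higher (53.2%). The 20 choroid plexus markers tested in the mutants had a median log2 change of -0.56, in place of 2.31 for the 15 tested in WT. Gpr17, Mal and Hmgcs1 had log2 changes of -1.39 ± 0.10, -1.23 ± 0.07 and -0.97 ± 0.08 in the mutants, and 18 of 22 cholesterol genes and 13 of 22 myelin genes were called lower. Abca8a, Cd74, H2-Aa, Neat1 and Tspo were called higher in the mutants too, at 1.74, 0.98, 1.04, 0.66 and 0.49 on the log2 scale. Ltc4s, Cox6b2, Sema3b, Spint2, Ppp1r1b and Eps8l2 were not, with log2 changes of -0.37 to 0.20. The difference between WT and mutants was not tested, and they share tables and so the locus models.

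The 12 WT cerebellum libraries of the same lines showed which changes were shared with another brain region. Among 11177 genes tested in both tissues, 1054 fell (9.43%) and 1032 rose (9.23%) with age in the cerebellum. Of the 672 olive genes that fell in agreement and were tested there, 380 also fell in the cerebellum (56.5%), and of 330 that rose, 123 also rose (37.3%). Whether the age difference itself differed between tissues was tested with an interaction term, which called 289 genes (2.59%). The labels do not say whether olive and cerebellum libraries came from the same mice, and the test treated all libraries as independent. Of 21 cholesterol genes 13 fell in the cerebellum, with a median log2 change of -0.30 against -0.35 in the olive and an adjusted p of 0.083 or more for each difference between tissues. Of 21 myelin genes 13 fell in the cerebellum. Mal and Mog changed by -0.94 ± 0.08 and -0.98 ± 0.10 there, and neither differed between tissues (adjusted p = 0.29 and 0.83). In the same list Mobp fell by 1.15 ± 0.16 on the log2 scale in the cerebellum, with -0.09 in the olive, and Nkx6-2, a transcription factor of oligodendrocytes, rose by 0.96 there, with -0.06 in the olive, and both differed between tissues (adjusted p = 0.012 and 0.039). Conversely, Nrep fell more in the cerebellum, by 0.77 ± 0.07 on the log2 scale. The falls of Tspan2, Rras2, Lhfpl3, Kif19a and Srd5a1 were larger in the olive by 0.38 to 0.71 on the log2 scale. Of 15 immediate early genes 7 were lower in the cerebellum, with a median log2 change of -0.42 there and -0.02 in the olive, and Npas4, Nr4a1 and Dusp1 differed between tissues.

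**Figure D5:**
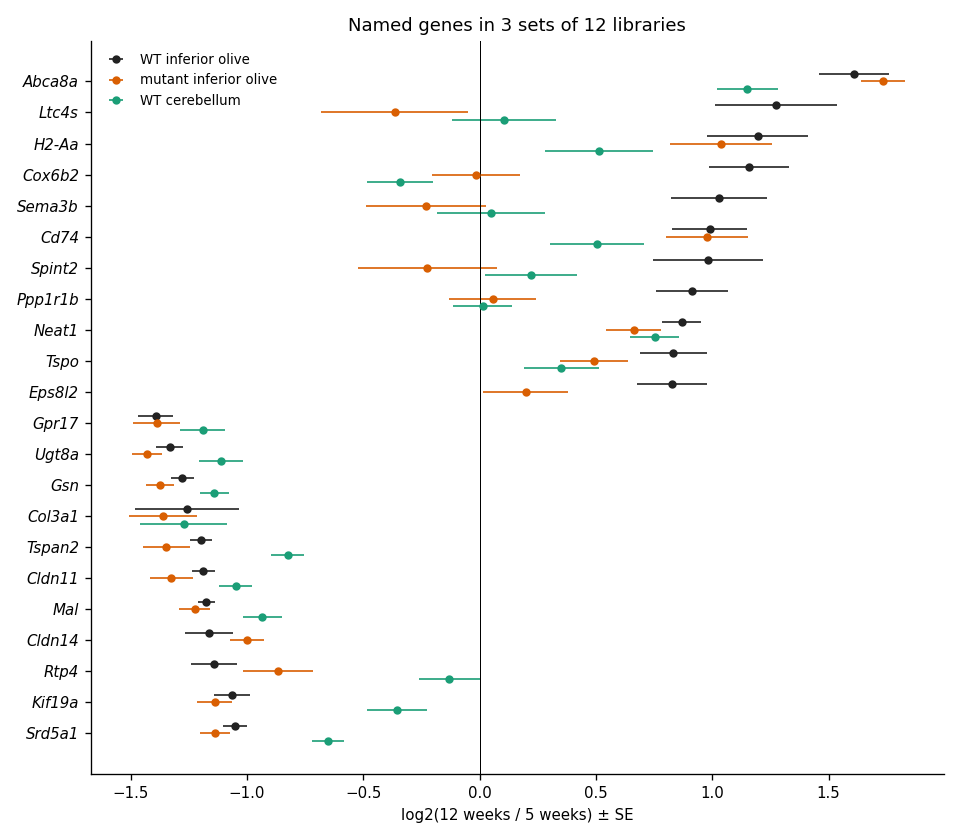
Log2 change from 5 to 12 weeks with its SE for 22 named genes in WT inferior olive (black), mutant inferior olive (orange) and WT cerebellum (green), from 12 libraries each; genes without a green point were not tested in the cerebellum. The genes that fell lie to the left of 0 in every set where they were tested, with Rtp4 nearest to 0 at -0.13 in the cerebellum, while Ltc4s, Cox6b2, Sema3b, Spint2, Ppp1r1b and Eps8l2 (not tested in the cerebellum) lie to the right only in WT inferior olive by more than 0.3.

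The genes with the smallest p for a difference between tissues were Zfp619, Ppp1r12b, Vamp4, Nr3c2 and Zfp870. The olive locus of Ppp1r12b was longer at 12 weeks, at 309928 and 309742 bases against 201524 and 202730 bases at 5 weeks. That of Zfp870 was 12383 to 27167 bases long over the 4 olive tables. Vamp4, a vesicle protein of the Golgi and of endosomes, was at 47.2 to 65.1 FPKM at 5 weeks and at 26 to 28.9 FPKM at 12 weeks in the olive (log2 -0.89 ± 0.06), at a locus whose ends lay within 153 bases in the 4 olive tables, and had a log2 change of 0.03 ± 0.05 in the cerebellum (adjusted p of the difference 8.8e-08). Nr3c2, the mineralocorticoid receptor, was at 7.97 to 9.31 FPKM in all 12 olive libraries and changed by 0.70 ± 0.04 on the log2 scale in the cerebellum.

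The strains differed in their age change at 205 genes (1.67%). Of these, 156 had log2 changes of opposite sign in FVB/NJ and C57BL/6J. Such differences were called at 2.63% of genes whose locus shifts by more than 500 bases between the tables and at 1.08% of the others. The 5 with the smallest p were Oraov1, Ssr1, Lsm6, Sfi1 and Inip. Oraov1, for example, was at 8.28 to 9.73 FPKM in FVB/NJ at both ages and, in C57BL/6J, at 6.7 to 7.26 FPKM at 5 weeks and 28.6 to 33.8 FPKM at 12 weeks, where its locus was 28415 bases long at 5 weeks and 7858 bases at 12 weeks. Ssr1, a subunit of the translocon-associated complex, was at 51.3 to 52.3 FPKM at 5 weeks and at 30.2 to 31.9 FPKM at 12 weeks in FVB/NJ. In C57BL/6J its levels were 19.1 to 23.3 FPKM and then 36.3 to 37.8 FPKM, with loci of 22790 to 27432 bases over the 4 tables.

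C57BL/6J 5 weeks replicate 2, the library that stood apart, was left out in an added fit. Without it 550 genes rose and 955 fell in agreement, against 368 and 721 with it, and the strain difference was called at 348 genes. The lists kept their direction, with 19 cholesterol, 16 myelin, 10 newly formed oligodendrocyte and 6 interferon-stimulated genes called. Of the choroid plexus markers 9 were called in place of 14. Among neuronal lists, 2 sodium, calcium and HCN channel genes were then called lower, 5 potassium channel genes higher, and 1 circadian clock gene in each direction. Without FVB/NJ 5 weeks replicate 2 the agreeing genes that rose numbered 221, and without C57BL/6J 12 weeks replicate 1 or 3 the genes called higher numbered 490 and 487 in place of 800.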

How the data were processed

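RNA from 12 WT inferior olive dissections was measured by RNA-seq with 3 biological replicates in each of 4 groups. Per the submitters' processing notes, the authors aligned reads to mm10 with TopHat2 (2.1.0), and the deposited FPKM values were made with Cufflinks (2.2.1) and Cuffnorm, separately for each table of 6 libraries. The deposited group means, log2 fold changes, p-values and q-values of the authors' comparisons were not used. Rows without a symbol (9.16% to 13.1% of a table) and symbols repeated in a table or turned into numbers were left out, which leaves 21518 symbols in all 4 tables. Locus positions take the first base as 1. Tests used limma 3.58.1 in R 4.3.3 on log2(rescaled FPKM + 0.1), with a mean-variance trend, and fold changes are on that scale, which understates low genes. The fit was tested on simulated data. Some genes are not reported here. Errors are SE for log2 changes. With FPKM only, the number of fragments and hence the precision of each value by depth is unknown, and p-values measure the spread between these mice. The named genes were the 12 agreeing genes with the largest change in each direction with at least 1 FPKM in every group, without predicted genes and without markers of choroid plexus, meninges, blood, pituitary and Schwann cells, up to 4 called and 2 other genes per list, 2 per marker list, and 5 per interaction. Some further list members were chosen after their values were seen. The members and lists were chosen with earlier results of these data known. Alternatives were another pseudocount, filter, scaling, trend, robust fit, replicate block, choroid plexus covariate, another choice of repeated rows, each library left out and, added after seeing the data, genes with stable loci.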

Additional observations from a re-analysis of the deposited data

Results flagged for a closer look

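The age change differed between the strains at 205 genes by the interaction term, which flagged them. As C57BL/6J minus FVB/NJ on the log2 scale, the difference was 2.21 for Oraov1, 1.54 for Ssr1, -1.33 for Lsm6, -1.56 for Sfi1 and 1.06 for Inip. The locus of Lsm6 was 312000 bases long in the FVB/NJ 12 week table and 18075 to 42958 bases in the others. Among the named genes that rose, the difference was 0.92 for Cd74 and 0.48 for Neat1, both of which rose in each strain. Among other named members of the lists it was 0.73 for Mobp, -0.40 for Scg2, -0.71 for Penk, -0.45 for Chgb, -0.64 for the potassium channel gene Kcnd2 and -0.31 for the chaperone gene Hsp90ab1.

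The age change differed between inferior olive and cerebellum at 289 genes. As olive minus cerebellum on the log2 scale, the difference was -2.23 for Zfp619, -0.95 for Ppp1r12b, -0.92 for Vamp4, -0.66 for Nr3c2 and -0.93 for Zfp870. Among other named genes it was 1.17 for Ltc4s, 1.5 for Cox6b2, 0.89 for Ppp1r1b, -0.38 for Tspan2, -1.01 for Rtp4, -0.71 for Kif19a, -0.41 for Srd5a1, -0.51 for Lhfpl3, -0.41 for Rras2, 0.46 for Nrep and 2.73 for the choroid plexus gene 1500015O10Rik. It was also 1.06 for Mobp, -1.02 for Nkx6-2, 1.65 for Npas4, 0.97 for Nr4a1, 0.89 for Dusp1, 0.81 for Lamb1, 2.48 for Kl and -0.33 for Stmn1. Olive and cerebellum values come from different tables, so locus models differ between them as well, and the difference was called at 2.27% of the 5427 genes with loci within 500 bases in all 8 tables and at 2.89% of the others. The olive loci of Zfp619, Ppp1r12b, Ltc4s and Rtp4 changed with age in both strains, as given above.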

How the results depend on the processing

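Of 78 named genes with a call, 76 or more kept it and their direction with either other pseudocount, the robust fit, upper quartile scaling and the replicate block, 74 without rescaling, and 73 without the trend and without the filter. With the choroid plexus covariate 47 of the 78 kept it, 29 lost it and 2 turned, and in FVB/NJ alone 44 kept it and 29 lost it, against 61 and 12 in C57BL/6J alone. Fos, C1qc, Kcnh1, Kcnt1, Slc17a6, Gabra2, Kcna1, Tubb2b, Cryab and Ttr lost their call when at least 1 single library was left out. With the choroid plexus covariate the calls fell to 611 (165 higher, 446 lower), the agreeing genes to 396 (89 higher, 307 lower) and the strain differences to 87. In that fit the log2 changes of Ttr and 1500015O10Rik were -0.29 and -0.16, which is what taking out the list to which they belong does. Restricting to loci within 500 bases, which tests fewer genes, gave 1142 calls (485 higher, 657 lower), 691 agreeing genes (237 higher, 454 lower), 56 strain differences and 114 tissue differences. Leaving out 1 library gave 1276 to 2456 calls (487 to 1099 higher, 786 to 1357 lower), 797 to 1505 agreeing genes (221 to 550 higher, 576 to 955 lower), 109 to 348 strain differences and 171 to 406 tissue differences. The cause of these shifts was not tested. Libraries with the same replicate number in different olive groups are different mice. Their deviations correlated from -0.25 to 0.27 (5 of 18 pairs over 0.1). The labels do not say whether the number stands for anything they share, and this was not tested. Olive and cerebellum libraries of the same number may come from the same mouse, but that pairing is unknown and was not used. With the replicate number as a block 1832 genes were called, 1136 agreed, and 184 differed between strains and 231 between tissues, and Fos and C1qc lost their call. The unknown depth limits genes near the 0.5 FPKM filter most.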
